A study of Mus musculus with 6 samples.

Results

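Toll-like receptors (TLRs) are the membrane receptors by which a cell detects microbial products and some products of injured tissue. The set described here holds the 7 receptor genes Tlr1, Tlr2, Tlr3, Tlr4, Tlr5, Tlr6 and Tlr13, the lipopolysaccharide cofactors Cd14 and Ly96, and the shared adaptor gene Myd88. These 10 named genes were found by matching Ensembl IDs to mouse symbols, out of 56393 genes in the count table, and 9 of the 10 passed the filter on low counts. They were compared by RNA sequencing between Nono-knockout cells (KO, n = 3 libraries) and wild-type cells (WT, n = 3 libraries), both labelled as vascular smooth muscle cells (VSMC) in primary culture from mouse. NONO is a nuclear protein that binds nucleic acids and helps to build paraspeckles. The 10 genes lie on chromosomes 1 (Tlr5 and Ly96), 3 (Tlr2), 4 (Tlr4), 5 (Tlr1 and Tlr6), 8 (Tlr3), 9 (Myd88), 18 (Cd14) and X (Tlr13). Cells of both groups grew in DMEM with 20% fetal bovine serum and received no further treatment. The labels give no strain, age, sex or time in culture, do not say how the knockout was made, and do not say whether replicates were separate cultures or animals. P-values therefore measure only the spread between these libraries, which may be technical.

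In the textbook pathway, receptors at the cell surface bind microbial lipids and proteins, and receptors in endosomes bind nucleic acids. Ligand binding brings receptor chains together, and their cytoplasmic domains recruit MyD88 or the adaptor TRIF, which lead to NF-kB and interferon regulatory factors and so to cytokine, chemokine and interferon genes. Smooth muscle cells of the vessel wall express several of these receptors, and CD14 serves as a cofactor of lipopolysaccharide sensing.

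The libraries held 56529170 to 61670083 counts. Nono was at 56.0, 54.8 and 51.1 CPM (read counts per 1000000, scaled by TMM factors) in KO and at 523, 502 and 519 CPM in WT, 9.54-fold lower in KO with an edgeR adjusted p of 1.63e-09. The 4 Y-linked genes Eif2s3y, Kdm5d, Uty and Ddx3y summed to 149.9 to 163.3 CPM in KO and to 0 to 0.0795 CPM in WT, so Y-linked transcripts and genotype cannot be told apart in any result below. Xist, the RNA expressed from an inactive X chromosome, was at 0.441 to 0.682 CPM in KO and 0.267 to 0.668 CPM in WT. Whether the groups differ in sex or in line of origin was not tested. Smooth muscle identity rests on the labels: Myh11, the smooth muscle myosin heavy chain, averaged 0.219 CPM in KO and 0.467 CPM in WT. Acta2, smooth muscle actin, averaged 161 CPM in KO and 16.4 CPM in WT, and Tagln, transgelin, 15.0 CPM in KO and 0.859 CPM in WT. The marker counts that follow stand beside 35.1% of all tested genes called higher and 34.2% called lower in KO by the same test. Of 11 tested smooth muscle markers out of 12, 6 were higher and 4 lower in KO (Des, Mylk, Synpo2 and Myocd, the last at 0 counts in KO and 0.428 CPM in WT). The list summed to 251 to 254 CPM in KO and 74.2 to 89.2 CPM in WT, with Acta2 the largest part of the KO sum. Of 12 tested fibroblast markers, 10 were higher and 1 lower, and the list summed to 11603 to 12511 CPM in KO and 1191 to 1333 CPM in WT. Monocytes and macrophages carry most of the receptors at high levels, and of 20 macrophage and leukocyte markers 7 were at 0 counts in all 6 libraries, the pan-leukocyte gene Ptprc and the macrophage genes Adgre1 and Itgam among them. The markers of this list at 1 CPM or more in either group numbered 5, of 7 tested 3 were higher and 2 lower, and the list summed to 9.62 to 11.3 CPM in KO and 62.4 to 74.3 CPM in WT. Csf1r averaged 3.29 CPM in KO and 0.157 CPM in WT, and Cd74, the largest part of the WT sum, averaged 2.39 CPM in KO and 56.9 CPM in WT. The 12 endothelial markers summed to 141 to 145 CPM in KO and 41.3 to 47.6 CPM in WT, but of the 6 tested 2 were higher and 4 lower. Eng made up most of the KO sum, at 133.6 CPM in KO and 2.42 CPM in WT, and Flt1 most of the WT sum, at 7.99 CPM in KO and 38.6 CPM in WT. The 8 epithelial and mesothelial markers summed to 9.87 to 13.4 CPM in KO and 77.0 to 84.8 CPM in WT, and of the 4 tested 2 were higher (Wt1 and Cdh1) and 2 lower (Krt19 and Msln). Pecam1, the endothelial CD31, averaged 0.647 CPM in KO and 1.53 CPM in WT, and the epithelial Epcam was at 0 counts in all 6 libraries. The part of these differences in the results below was not tested. In such bulk samples, fewer cells of a type and less RNA per cell cannot be told apart.

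Of the 9 tested genes, 5 were higher in KO (Cd14, Ly96, Tlr5, Tlr2 and Myd88), 2 were lower (Tlr1 and Tlr6), and Tlr4 and Tlr3 did not pass (edgeR quasi-likelihood test, Benjamini-Hochberg adjusted p under 0.05). The same test called 69.3% of all 18732 tested genes, 35.1% as higher and 34.2% as lower, so 7 calls among 9 genes is close to the share over all genes. The median log2 fold change was 0.57 over the 9 genes and 0.03 over all tested genes, and the median absolute log2 fold change was 1.79 over the 9 and 0.91 over all. The 3 CPM values of each group did not overlap in 8 of the 9 genes, 6 with KO above WT and 2 with KO below. Over all tested genes the groups did not overlap in 75.5%, with KO above in 38.4% and KO below in 37.1%. What follows gives the size and direction for each gene.

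**Figure D1:**
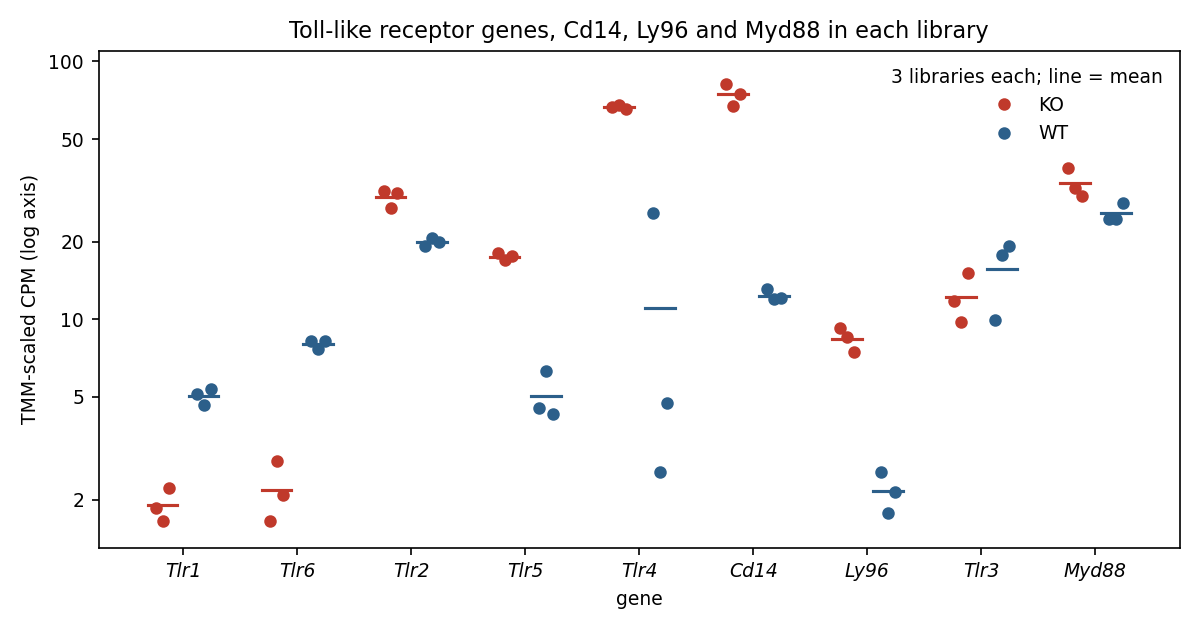
TMM-scaled CPM on a log axis for the 9 tested genes, with each point a library (KO left, WT right, 3 each) and each line a group mean. The groups stand apart in every gene but Tlr3, and the WT libraries of Tlr4 spread from 2.57 to 25.9 CPM.

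TLR4 detects lipopolysaccharide, the outer membrane lipid of Gram-negative bacteria, in a complex with MD-2, the product of Ly96, and CD14 hands the lipid over to that complex. Cd14 was at 81.6, 67.3 and 74.5 CPM in KO, against 13.1, 11.9 and 12.1 CPM in WT. Every KO library lay at more than 5 times the highest WT library, and replicates within a group differed little. The fitted difference was 6.02-fold (log2 fold change 2.59 ± 0.09 SE, edgeR adjusted p = 6.07e-08). Ly96 was at 9.24, 8.55 and 7.47 CPM in KO, against 2.55, 1.77 and 2.15 CPM in WT, again with no overlap. In KO it was 3.90-fold higher (log2 fold change 1.96 ± 0.19 SE, edgeR adjusted p = 2.26e-05).

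Tlr4 itself was at 66.4, 67.8 and 65.6 CPM in KO, against 25.9, 2.57 and 4.72 CPM in WT. All KO libraries lay above all WT libraries, but WT replicate 1 stood far from the others, with 1635 counts where WT replicates 2 and 3 had 154 and 297. The highest WT library was 10.1 times the lowest, while the KO libraries stayed within 1.03 times of each other. The fitted difference of 6.01-fold (log2 fold change 2.59 ± 0.95 SE, 95% interval 0.11 to 5.07) was close to that of Cd14 in size but did not pass (edgeR adjusted p = 0.0617, unadjusted p = 0.0438). Without WT replicate 1 the difference was 18.3-fold and passed (edgeR adjusted p = 3.88e-05). DESeq2 (adjusted p = 0.0107), limma-voom (adjusted p = 0.0125) and limma on the deposited FPKM (adjusted p = 0.00284) also called Tlr4 higher over all 6 libraries. Over the 15 alternatives the edgeR, DESeq2 and limma adjusted p ranged between 3.88e-05 and 0.161. The direction was upward in each of them.

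**Figure D2:**
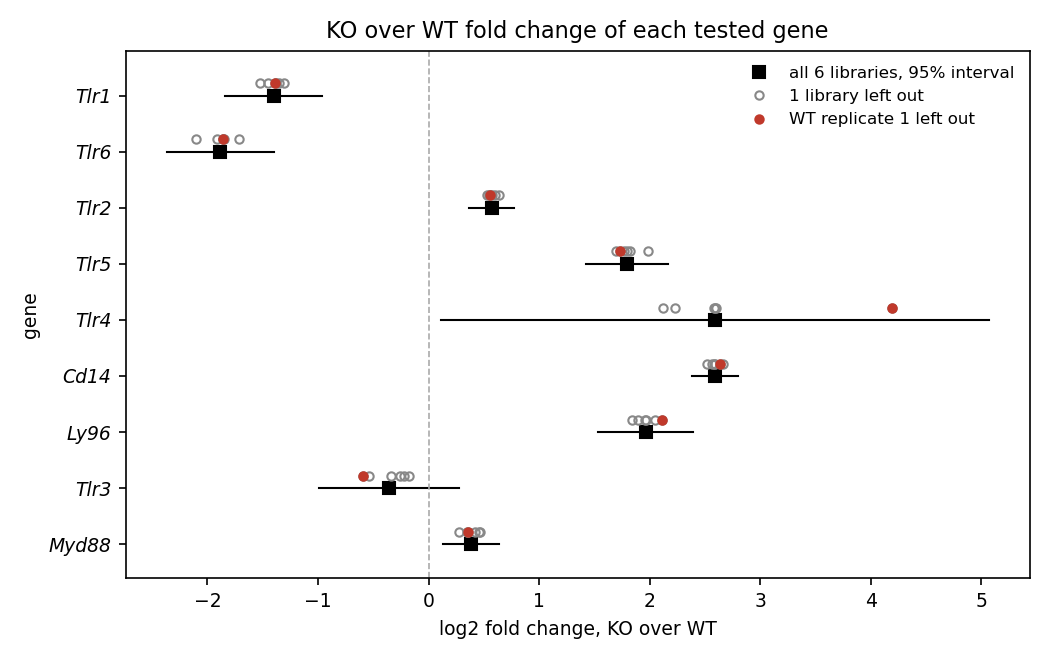
Log2 fold change of KO over WT for the 9 tested genes over all 6 libraries (squares, with the 95% interval before adjustment) and with 1 library left out (circles; filled where WT replicate 1 was left out). Tlr4 moves to 4.19 without WT replicate 1, and no gene changes sign.

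TLR2 recognises bacterial lipopeptides as a heterodimer, with TLR1 for triacylated and with TLR6 for diacylated lipopeptides. The receptor and its partners went in opposite directions. Tlr2 was at 31.4, 27.0 and 30.8 CPM in KO, against 19.3, 20.7 and 19.9 CPM in WT. The groups did not overlap, and the difference was modest at 1.49-fold (log2 fold change 0.57 ± 0.09 SE, edgeR adjusted p = 0.000455). Tlr1 was at 1.86, 1.65 and 2.22 CPM in KO, against 5.12, 4.67 and 5.37 CPM in WT. In KO it was 2.64-fold lower (log2 fold change -1.40 ± 0.19 SE, edgeR adjusted p = 0.000216). Tlr6, which neighbours Tlr1 on chromosome 5 and is its paralog, was at 1.65, 2.82 and 2.09 CPM in KO, against 8.22, 7.70 and 8.24 CPM in WT. In KO it was 3.68-fold lower (log2 fold change -1.88 ± 0.21 SE, edgeR adjusted p = 6.43e-05). In both partner genes every KO library lay below every WT library. Reads shared by these paralogs could have been split between them or dropped, as the counting rule is not given in the sources used here.

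Tlr5, the receptor for bacterial flagellin, was at 18.1, 16.9 and 17.6 CPM in KO, against 4.55, 6.32 and 4.29 CPM in WT. All KO libraries lay well above the WT range. The difference was 3.47-fold (log2 fold change 1.79 ± 0.16 SE, edgeR adjusted p = 1.62e-05).

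The nucleic acid receptors sit in endosomes. Tlr3, which binds double-stranded RNA and signals through TRIF instead of MyD88, was at 11.7, 9.73 and 15.1 CPM in KO, against 9.98, 17.8 and 19.2 CPM in WT. The groups overlapped because WT replicate 1 lay among the KO libraries. The log2 fold change of -0.36 ± 0.27 SE (95% interval -0.99 to 0.27) did not pass (edgeR adjusted p = 0.268). It did pass without WT replicate 1 (log2 fold change -0.60, edgeR adjusted p = 0.0247). In the deposited FPKM, Tlr3 was at 3.68, 2.85 and 4.30 FPKM in KO, against 5.08, 5.31 and 5.01 FPKM in WT. On that scale the groups did not overlap, and limma on log2(FPKM + 0.1) called it lower in KO (-0.52, adjusted p = 0.0195). Over the 15 alternatives its edgeR, DESeq2 and limma adjusted p ran between 0.0195 and 0.609. Tlr13, a mouse receptor for bacterial ribosomal RNA, had 5 counts in KO replicate 1 and 0 counts in the other 5 libraries, and fell under the filter.

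Of the 5 receptor genes outside the set, Tlr11 and Tlr12 were at 0 counts in all 6 libraries, and Tlr8 and Tlr9 fell under the filter. Tlr7, a sensor of single-stranded RNA encoded on the X chromosome, was at 0.699, 1.09 and 0.424 CPM in KO, against 0, 0 and 0.0636 CPM in WT. The KO libraries held 126 counts in all and the WT libraries 4. It passed as higher (log2 fold change 4.97 ± 1.02 SE, edgeR adjusted p = 0.00241). WT replicate 3 held all 4 WT counts, and without it the fitted log2 fold change was 8.45, against WT libraries at 0 counts, so the size of the fold is not fixed by these counts. On log2(deposited FPKM + 0.1) it was 1.26. The added 0.1 largely sets that value, as Tlr7 was at 0.0875 to 0.242 FPKM in KO and at most 0.0148 FPKM in WT.

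MyD88 is the adaptor used by all of these receptors except TLR3, and it also serves the interleukin-1 receptor family. Myd88 was at 38.5, 32.2 and 30.1 CPM in KO, against 24.5, 24.5 and 28.2 CPM in WT. The groups did not overlap, though the lowest KO library lay close to the highest WT library. The difference was 1.31-fold (log2 fold change 0.38 ± 0.11 SE, edgeR adjusted p = 0.0139). This call was lost with scaling by total counts (log2 fold change 0.26, edgeR adjusted p = 0.0663) and on the deposited FPKM (0.25, limma adjusted p = 0.0504), and over the 15 alternatives the adjusted p ran between 0.00374 and 0.0663. Scaling by total counts moved the median log2 fold change of all tested genes to -0.10, against 0.03 with TMM factors. In the GENCODE M21 annotation 1736 bases of the Myd88 locus are shared with Acaa1a on the opposite strand, and Acaa1a had 5045, 4693 and 5534 counts in KO, against 1609, 1944 and 1470 counts in WT. As the strand setting of the counting is not given in the sources used here, reads of the 2 genes may not be separable there. Slc22a14, which overlaps Myd88 on the same strand, had 0 counts in all libraries. Of the other members, Tlr3 is the member that overlaps an annotated gene, the antisense locus Gm45542 with at most 4 counts in any library.

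Promoter sequence was read for 7 of the 10 genes (Tlr1, Tlr2, Tlr3, Tlr5, Tlr6, Tlr13 and Myd88, but not Cd14, Tlr4 and Ly96) from the RefSeq table of build GRCm38.p6, as the 250 bases before the annotated start. Both strands were searched for the NF-kB consensus, for the interferon-stimulated response element (ISRE, a pair of GAAA runs 2 bases apart), for the AP-1 site (TGANTCA) and for the PU.1 core (GAGGAA). The NF-kB consensus occurs in 3.9% of the 32851 promoter windows in that table, the ISRE in 2.98%, the AP-1 site in 6.75% and the PU.1 core in 23.3%. The 4 windows with a match to NF-kB or the ISRE are shown to place the matches beside the values of these genes, with the matching bases in capitals. The sequences run 5′ to 3′ on the strand of the gene.
Tlr2, chr3:83841609-83841858, minus strand: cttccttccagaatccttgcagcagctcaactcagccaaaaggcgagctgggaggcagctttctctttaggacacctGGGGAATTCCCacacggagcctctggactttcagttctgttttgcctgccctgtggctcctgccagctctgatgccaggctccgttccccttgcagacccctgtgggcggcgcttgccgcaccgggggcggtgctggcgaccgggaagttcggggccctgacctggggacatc
Tlr3, chr8:45410381-45410630, minus strand: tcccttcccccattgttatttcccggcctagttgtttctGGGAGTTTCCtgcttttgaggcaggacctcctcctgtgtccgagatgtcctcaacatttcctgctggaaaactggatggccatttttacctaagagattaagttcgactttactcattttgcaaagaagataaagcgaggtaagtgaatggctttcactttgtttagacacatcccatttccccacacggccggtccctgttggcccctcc
Tlr6, chr5:64959167-64959416, minus strand: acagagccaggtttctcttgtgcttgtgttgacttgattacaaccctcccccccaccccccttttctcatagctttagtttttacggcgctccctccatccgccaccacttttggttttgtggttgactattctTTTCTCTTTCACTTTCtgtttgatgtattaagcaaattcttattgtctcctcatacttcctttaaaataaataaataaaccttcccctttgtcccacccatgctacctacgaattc
Myd88, chr9:119340019-119340268, minus strand: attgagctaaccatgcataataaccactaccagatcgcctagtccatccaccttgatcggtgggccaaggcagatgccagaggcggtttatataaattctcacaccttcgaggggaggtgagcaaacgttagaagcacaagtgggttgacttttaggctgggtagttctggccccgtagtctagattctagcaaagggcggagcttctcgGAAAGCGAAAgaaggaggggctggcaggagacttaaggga
The capitals in Tlr2 are a pair of overlapping NF-kB matches and those in Tlr3 a match to the same consensus. Tlr2 was higher in KO, whereas Tlr3 did not pass. Tlr6 holds a pair of overlapping ISRE matches read on the opposite strand, and Myd88 holds an ISRE match, with Tlr6 lower and Myd88 higher in KO. The other start of Tlr6 had no match, and neither did Tlr5. A PU.1 core lay before a start of Tlr1 and before Tlr13, and no AP-1 match was found before any of the 7 genes. A match is a run of letters and not a measured binding site.

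Levels can be compared between genes only per length, for which the authors' deposited FPKM were used. In KO the order by mean FPKM was Cd14 (40.9 ± 3.48 FPKM), Myd88 (15.96 ± 1.81 FPKM), Tlr4 (15.1 ± 0.84 FPKM), Ly96 (11.2 ± 1.10 FPKM), Tlr2, Tlr5, Tlr3, Tlr6 and Tlr1 (SD, n = 3). In that order the libraries of neighbouring genes overlapped for Myd88 and Tlr4 and for Tlr6 and Tlr1, and in no other pair. In WT it was Myd88 (13.4 ± 0.69 FPKM), Cd14 (7.71 ± 0.52 FPKM), Tlr2 (6.06 ± 0.30 FPKM), Tlr3 (5.13 ± 0.16 FPKM), Ly96, Tlr4, Tlr6, Tlr5 and Tlr1 (SD, n = 3). From Ly96 down to Tlr1, each gene of that order overlapped the next in WT. Tlr13 came last in both groups, with a highest value of 0.014 FPKM. Cd14 thus stood above Myd88 in every KO library and below it in every WT library. Tlr6 and Tlr1, at 0.539 ± 0.204 and 0.539 ± 0.067 FPKM in KO, were at 2.54 ± 0.64 and 1.77 ± 0.16 FPKM in WT (SD, n = 3 each).

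**Figure D3:**
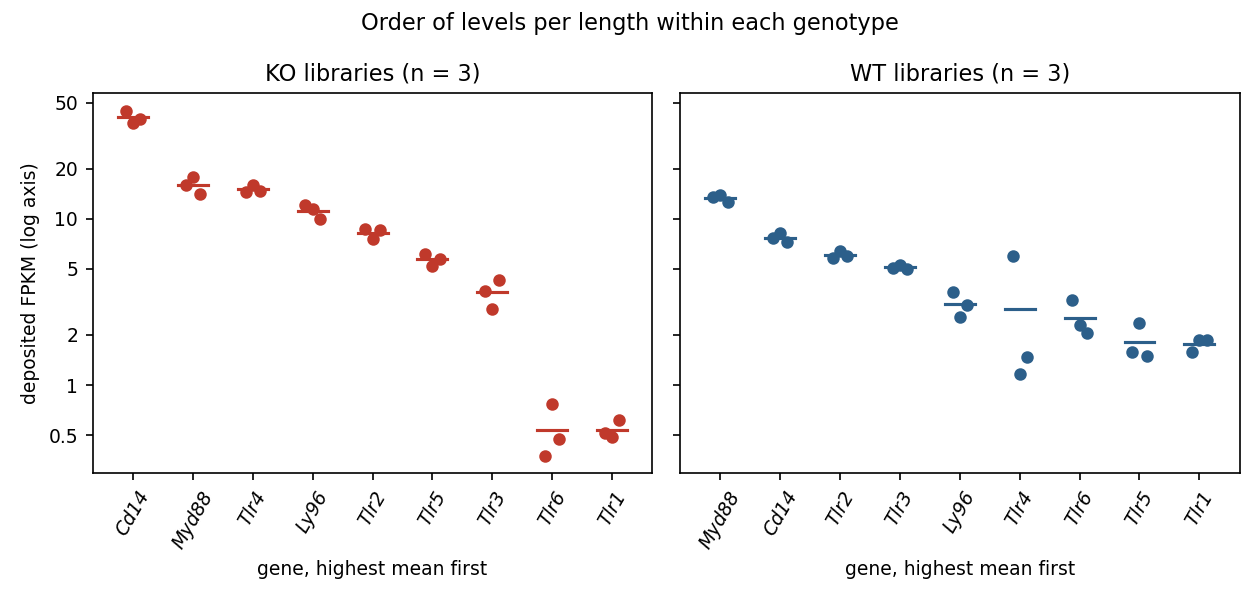
Deposited FPKM on a log axis for 9 genes (Tlr13 is left out), ordered by mean within KO (left) and within WT (right), with each point a library and each line a mean. Cd14 leads in KO at 40.9 FPKM and Myd88 in WT at 13.4 FPKM, and Tlr6 and Tlr1 lie at 0.539 FPKM in KO.

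The deposited FPKM are not the counts divided by a fixed length. For each gene, FPKM per count was set relative to its own geometric mean over the 6 libraries, after the typical ratio of each library had been removed. Tlr2, with 1 annotated transcript, kept the same ratio in all libraries (0.9998 to 1.0005). Tlr4, with 4 annotated transcripts, had a ratio of 1.59 in WT replicate 2, against 0.831 in WT replicate 1 and 0.855 to 0.917 in KO. Tlr3, with 9 annotated transcripts, was at 1.55 in WT replicate 1, against 0.791 and 0.885 in the other WT libraries. Tlr6, with 2, was at 1.40 in WT replicate 1. Ly96, with 3, stayed at 0.987 to 1.01 and Tlr5, with 5, at 0.938 to 1.05. The range thus did not follow the number of annotated transcripts in every gene. Among 10737 genes with at least 100 counts and 1 FPKM in every library, 0.857% had as wide a range as Tlr3, 1.02% as wide as Tlr4 and 2.68% as wide as Tlr6, which itself lay under 1 FPKM in KO. By FPKM the Tlr4 gap between WT replicate 1 and the others was smaller (5.97, 1.16 and 1.47 FPKM) than by counts, with 14.5, 16.0 and 14.6 FPKM in KO.

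**Figure D4:**
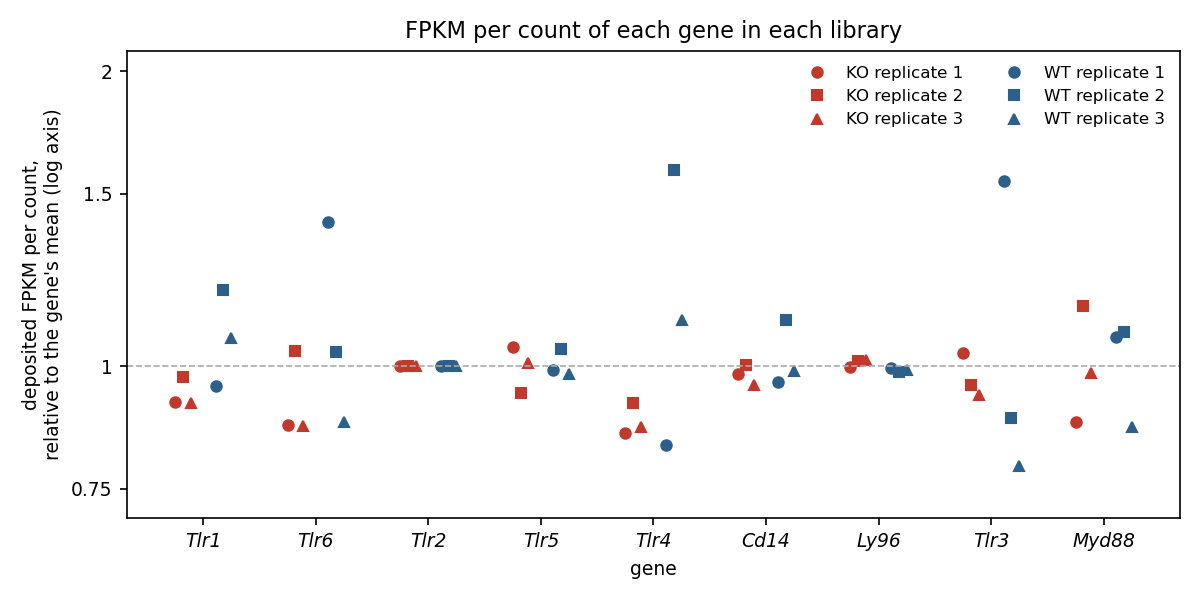
Deposited FPKM per count in each library, relative to the geometric mean of the gene over 6 libraries (log axis), with KO left of WT and a marker shape per replicate. Tlr2, Ly96 and Tlr5 stay near 1, while Tlr4 reaches 1.59 in WT replicate 2 and Tlr3 1.55 in WT replicate 1.

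Lists of other genes of the pathway were counted in the same test. In the 6 lists with 8 or more tested genes, 75% to 95.8% of the genes passed, against 69.3% of all tested genes. Most tested genes of these lists averaged 1 CPM or more in a group. Among all genes with at least 1 CPM in 3 or more libraries, 79.1% passed, so the lists with the lower shares stood near that value. Genes that work with these receptors outside the cell and in trafficking went both ways. Of 8 tested cofactor and trafficking genes out of 10 listed, 4 were higher and 3 lower, with a median log2 fold change of 0.24. Lbp, the lipopolysaccharide-binding protein that delivers the lipid to CD14, averaged 404 ± 5.60 CPM in KO and 134 ± 18.2 CPM in WT (SD, n = 3 each), a 3.01-fold difference (edgeR adjusted p = 1.14e-06). Tril, a leucine-rich accessory protein of TLR4 and TLR3, was at 2.69, 4.04 and 2.51 CPM in KO, against 0 counts in every WT library. With WT set to 3 counts over the group, the limit that 0 counts allow, Tril was at least 191-fold higher. Cnpy4, a regulator of receptor surface levels, was 1.69-fold higher. Cd36, a scavenger receptor that assists TLR2 and TLR6, had 0 counts in every KO library, against 2.31, 2.72 and 1.13 CPM in WT, at least 118-fold lower with KO set to 3 counts over the group. Scarb1, a lipoprotein receptor, averaged 78.7 CPM in KO and 70.3 CPM in WT and did not pass (edgeR adjusted p = 0.0561). These limits cover counting error only.

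Among the intracellular steps, 26 of 27 listed adaptor, kinase and ubiquitin ligase genes were tested, of which 11 were higher and 10 lower, with a median log2 fold change of 0.27. Map3k8, the kinase TPL-2 that links the receptors to ERK signalling, averaged 50.1 ± 1.96 CPM in KO and 2.67 ± 0.55 CPM in WT (SD, n = 3 each), an 18.8-fold difference (edgeR adjusted p = 6.58e-08). The IKK family, which phosphorylates the NF-kB inhibitors or the interferon regulatory factors, had 5 genes on this list and was not a list of its own. Of the 5, 4 were called higher and 1 lower, beside 35.1% higher and 34.2% lower over all tested genes. Ikbke was 6.22-fold and the regulatory subunit Ikbkg 3.17-fold higher in KO, with Tbk1 at 1.38-fold and Ikbkb at 1.18-fold. Chuk, encoding IKK-alpha, was 2.12-fold lower. Ticam2, the adaptor that couples TLR4 to TRIF, had 74 counts over the KO libraries and 0 counts in WT, at least 26.7-fold more in KO when WT is set to 3 counts in all (edgeR adjusted p = 0.00122). Of 15 tested negative regulators, 8 were higher and 4 lower, with a median log2 fold change of 0.48. The NF-kB inhibitor Nfkbia averaged 105 ± 2.01 CPM in KO and 41.5 ± 1.08 CPM in WT (SD, n = 3 each). Zc3h12a, an RNase that degrades cytokine transcripts, was 6.06-fold and Tnip1, a partner of the deubiquitinase A20, 2.26-fold higher. Usp18, a brake on interferon signalling, was 2.50-fold lower. Tnfaip3, which encodes A20, averaged 24.9 CPM in KO and 22.3 CPM in WT and did not pass (edgeR adjusted p = 0.36). Sigirr (0.203 CPM in KO and 0.726 CPM in WT) and Rnf216 (71.5 CPM in KO and 76.0 CPM in WT) did not pass either.

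Of 16 tested transcription factors downstream of the receptors, 4 were higher and 8 lower, with a median log2 fold change of -0.53. Rela, which encodes a transactivating NF-kB subunit, averaged 72.2 ± 3.53 CPM in KO and 166 ± 4.80 CPM in WT (SD, n = 3 each). It was 2.29-fold lower in KO (edgeR adjusted p = 2.43e-07). Nfkb2 was 2.99-fold lower. In the other direction, Cebpd, a C/EBP factor of the acute-phase response, averaged 347 ± 7.15 CPM in KO and 22.2 ± 2.78 CPM in WT, and Nfkbiz, an inducible nuclear NF-kB cofactor, was 8.48-fold higher. Of the 16, 2 were called higher with scaling by total counts or without KO replicate 1.

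Genes that receptor stimulation is known to induce were listed as well, although these cells received no ligand. Of 24 tested induced targets out of 29 listed, 14 were higher and 9 lower, with a median log2 fold change of 1.20. Saa3, an acute-phase protein, was at 1638, 1519 and 1490 CPM in KO, against 34.9, 36.3 and 32.9 CPM in WT, a 44.6-fold difference (edgeR adjusted p = 5.3e-10). The monocyte chemokine Ccl2 averaged 168 ± 3.98 CPM in KO and 17.4 ± 0.81 CPM in WT (SD, n = 3 each). Cxcl10, a chemokine for T cells, averaged 7.66 ± 0.80 CPM in KO and 74.8 ± 3.03 CPM in WT, and the chemokine Ccl5 averaged 9.11 ± 1.21 CPM in KO and 95.8 ± 10.8 CPM in WT (SD, n = 3 each). Both were lower in KO, by 9.76-fold and 10.5-fold. Of the interferon-induced genes on the list, Isg15 was 2.66-fold and Ifit1 1.37-fold lower in KO, and Ifit3 was 2.24-fold higher. Tnf was at 0 counts in all 6 libraries. Il6 averaged 5.23 ± 0.78 CPM in KO and 4.68 ± 1.04 CPM in WT and did not pass (edgeR adjusted p = 0.519).

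Another list held genes for matrix, released and related proteins, most of them described as endogenous ligands of TLR2 or TLR4. Of 12 tested genes out of 14, 9 were higher and 2 lower, with a median log2 fold change of 1.54. The proteoglycan genes Bgn and Dcn, for biglycan and decorin, were 6.46-fold and 55.2-fold higher in KO, at 3399 and 1464 CPM in KO and 526 and 26.5 CPM in WT. The heat shock gene Hspa1b was 29.9-fold higher. Agt, for the angiotensin precursor and not an established ligand of these receptors, was 67.2-fold higher. The size of the Hspa1b fold is uncertain, since reads of its near-identical copy Hspa1a could have been split between them. Hspa1a, on the same list, was also called higher, at 45.3 CPM in KO and 0.543 CPM in WT (83.1-fold). Hmgb1, a nuclear protein released from injured cells, averaged 250.2 CPM in KO and 263 CPM in WT and did not pass (edgeR adjusted p = 0.38). Dcn is also among the fibroblast markers, whose sum stood at 11603 to 12511 CPM in KO and 1191 to 1333 CPM in WT.

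**Figure D5:**
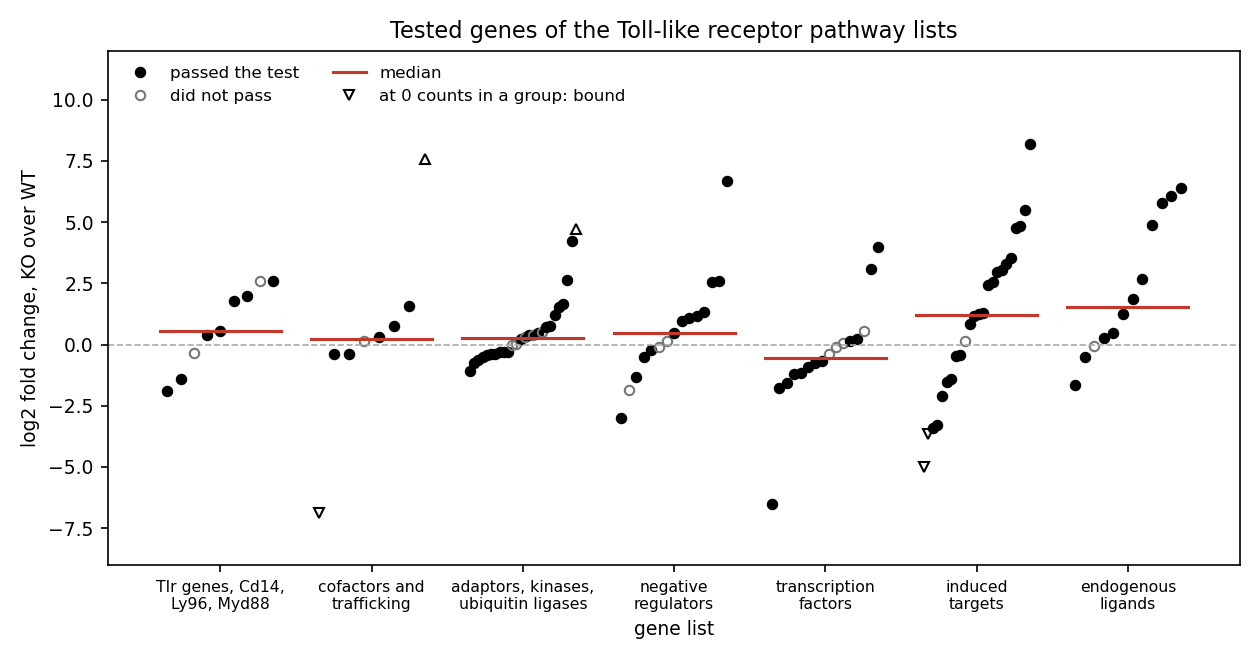
Log2 fold change of KO over WT for each tested gene of the set (left) and of 6 pathway lists, sorted within a list, with filled circles for genes that passed, open circles for those that did not, triangles for genes at 0 counts in a group (drawn at the bound from 3 counts) and a bar for the median. Medians run from -0.53 for transcription factors to 1.54 for endogenous ligands and are the same with those genes at the bound, and every list holds genes on both sides of 0.

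The genes with a profile most like that of each of the 3 members with the highest mean CPM were found by the root-mean-square distance of centred log2(CPM + 0.1) over the 6 libraries, among 10654 genes. Vgll3, Ahr and D2hgdh lay closest to Cd14 (distance 0.0641 to 0.0893), and Lrp5, Zfp710 and Atg4a closest to Myd88 (0.064 to 0.067). The closest to Tlr4 were Prr33, Wdr81 and Adgra2, at a distance of 0.699 to 0.802. The 6 libraries fall into 2 genotype groups, and genes with a difference of like size lie close by this measure.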

How the data were processed

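For each of 6 libraries the authors deposited whole-number read counts and FPKM for every Ensembl gene, per the file headers. How the deposited FPKM were made is not given in the sources used here, and the same holds for the counting tool, its handling of strand and the gene models. The submitters' processing notes name CASAVA (1.8), HISAT2, SAMtools (1.3.1), edgeR and build GRCm39. Genotypes came from the labels. Symbols and chromosomes came from GENCODE M21 (GRCm38), for 55394 of 56393 genes.

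Counts were filtered with filterByExpr (18732 genes kept), scaled with TMM factors (0.952 to 1.06) and tested, KO against WT over all 6 libraries, with edgeR (4.0.16, R 4.3.3) by robust quasi-likelihood, adjusted over all tested genes. The SE is the log2 fold change over the root of F. Alternatives were DESeq2 (1.42.0), limma (3.58.1; voom, and log2(FPKM + 0.1)), total-count scaling, other filters and thresholds, X and Y genes left out, the replicate block and each library left out. The fit was tested on simulated data in which 200 genes were changed. In the real comparison 69.3% of tested genes were called, so the simulation does not test the scaling in that setting. All replicate pairs differed beyond sampling noise, at a chi-square of 20.7 to 31.6 per degree of freedom.

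The members and lists were chosen with earlier results of these data known. All members are named, and of each list the 4 genes with the smallest adjusted p and, where 3 or fewer did not pass, those. Tlr8, Tlr9, Tlr11, Tlr12, Tnf, Ticam2, Acaa1a, Slc22a14, Gm45542, Tbk1, Ikbkb, Ifit1, Ifit3, Isg15, Hspa1a, Xist, the markers Cd74, Itgam, Des, Mylk, Synpo2, Myocd, Eng, Flt1, Wt1, Cdh1, Krt19 and Msln, and the genes of variable WT level were named after their values were seen. The Y-linked Eif2s3y, Kdm5d, Uty and Ddx3y were also named outside these rules.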

Additional observations from a re-analysis of the deposited data

How the results depend on the processing

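The direction of all 9 tested members was the same in each of the 15 alternatives, and Cd14, Ly96, Tlr5, Tlr2, Tlr1 and Tlr6 stayed past the threshold in each. Of the 6 named list genes that did not pass, Il6 passed in 0 alternatives, Tnfaip3 and Sigirr in 1 each, Rnf216 in 2, Hmgb1 in 3 and Scarb1 in 4. Myd88 lost its call in 3 alternatives, Tlr4 gained one in 5 and Tlr3 in 2. With scaling by total counts 45.4% of calls were higher in KO, against 50.7% with TMM. Of the other receptors, 0 were called higher with at least 1 CPM in 3 libraries or with X and Y genes left out, where Tlr7 is not tested. Among transcription factors, 2 were called higher with scaling by total counts and at adjusted p 0.01, and 2 to 4 with a library left out. The sign turned on the deposited FPKM for Il6 (log2 fold change -0.31) and Tnfaip3 (-0.064); the cause was not tested. The replicate numbers did not pair the libraries: deviations of same-numbered libraries correlated at -0.05, -0.01 and -0.03. With the replicate block 6214 genes were higher and 6019 lower, and Tlr4 passed (log2 fold change 3.27, edgeR adjusted p = 0.0487), with no other member's call changed. Depth limits Tlr13, at 5 counts in all.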

Other observations

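Few genes varied between WT libraries as much as Tlr4. In KO, 16 of 11167 genes averaging 5 CPM or more had a highest library at least 10.1 times the lowest. In WT 18 of 10880 did, Tlr4 included, and 9 of these were highest in WT replicate 1. The WT genes include the clustered protocadherins Pcdhga2 and Pcdhgb8, the enolase copy Eno1b, and 8 predicted or pseudogene loci. In GENCODE M21, 17 of the 18 overlap another annotated gene on the same strand, as do 24.8% of all 10880 genes, and Tlr4 is the exception. The reads behind the 1635 counts of Tlr4 in WT replicate 1 were not examined here.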
